A study of Auxenochlorella pyrenoidosa with 8 samples.

Results

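The first hour after a green alga lost its extra CO2 was described from 4 RNA-seq libraries, 2 taken at 0 h and 2 taken after 1 h in air, out of the 8 libraries of the series. The alga was Auxenochlorella pyrenoidosa, strain FACHB-9, a unicellular member of the Chlorella group. All cultures had grown for 5 days in light on 5% CO2, and those sampled at 1 h had then been bubbled with air for that hour. The members of a pair came from separate biological experiments run as 1 batch, and the samples used here include no culture that stayed on 5% CO2 for the extra hour, so an effect of air and an effect of handling or of time in culture cannot be told apart. Of 10283 genes in the deposited table, 9372 averaged 1 RPKM or more across these 4 libraries and were tested, and 911 averaged less. RPKM is a read count divided by the length of the gene and by the size of the library.

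Dissolved CO2 is the substrate of Rubisco, the carboxylating enzyme of the Calvin cycle, and the enzyme works poorly when CO2 is scarce. Green algae are known to respond with a carbon-concentrating mechanism, in which transporters bring in bicarbonate and carbonic anhydrases turn it back into CO2 near Rubisco. In Chlamydomonas, a related green alga, many genes of this mechanism are known to be induced within hours of a shift from high CO2 to air. The deposited files pair the gene numbers of this strain with no gene name or product, so genes are given here by number, level, structure and position, and no role is assigned to any of them.

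Reads in genes ranged from 16706278 to 23106515 per library. At these depths 1 read in a gene of 1 kb was worth between 0.0433 and 0.0599 RPKM. The libraries did not group cleanly by label. Of the 9372 genes, 244 differed by 2-fold or more between the 0 h libraries and 456 between the 1 h libraries, whereas 179 did so between 0 h library 2 and 1 h library 1. In contrast, 1112 genes were 2-fold or more apart between 0 h library 1 and 1 h library 2. The latter also differed from the library labelled 24 h number 1 in 27 genes, fewer than from any of the other 3 libraries compared here. Likewise, 1 h library 1 differed from the library labelled 24 h number 2 in 132 genes. The 24 h libraries differed from each other in 755 genes. These counts, and the fitted changes given here unless another setting is named, are on the log2(RPKM + 1) scale. The added 1 is a pseudocount that shrinks the change of low genes. Ratios given for single genes are of RPKM itself.

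After 1 h in air most genes stood close to their 0 h level, and none passed the test for a change. limma, a linear model with moderated variances, called 0 of 9372 genes (0.0%) at a Benjamini-Hochberg adjusted p under 0.05, with a smallest adjusted p of 0.111. At an unadjusted p under 0.05, limma gave 200 genes that were higher at 1 h (2.13%) and 765 that were lower (8.16%), where 469 in all are expected by chance. These counts moved with single libraries. Without 0 h library 1 they were 56 and 273 and without 1 h library 2 they were 47 and 374, both fewer in all than 469. Without 0 h library 2 they were 673 and 1403, and without 1 h library 1 they were 400 and 725. limma's voom on reads recovered from the RPKM also called 0, with 329 higher and 501 lower at an unadjusted p under 0.05. Between the 25th and the 75th percentile, fitted log2 changes ran from -0.31 to 0.14. The first percentile stood at -1.26 and the 99th at 0.97. With 2 libraries a side, an exact permutation test of a single gene cannot go below a two-sided p of 0.333.

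The fitted change was 2-fold or more for 85 genes that were higher at 1 h (0.907% of the genes tested) and for 196 that were lower (2.09%). It was 4-fold or more for 17 higher genes (0.181%) and 21 lower genes (0.224%). The libraries of both times were fully separated, with both 1 h values above both 0 h values, in 1205 genes (12.9%), and with both 1 h values below in 2653 (28.3%). If the libraries of a gene were interchangeable, full separation in either direction would have a chance of 0.333. Separation alone therefore does not mark a change. The tilt of these counts towards lower values moved with the scaling between libraries. The median gene was lower at 1 h by a log2 value of -0.08 as deposited, and a trimmed mean of ratios between libraries brought it to 0.0052. After that scaling 1811 genes were fully higher and 1981 fully lower, so the share of lower genes among them went from 68.8% to 52.2%. By 2-fold or more, the same scaling gave 110 higher and 153 lower genes, 58.2% lower where the deposited RPKM gave 69.8%.

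**Figure D1:**
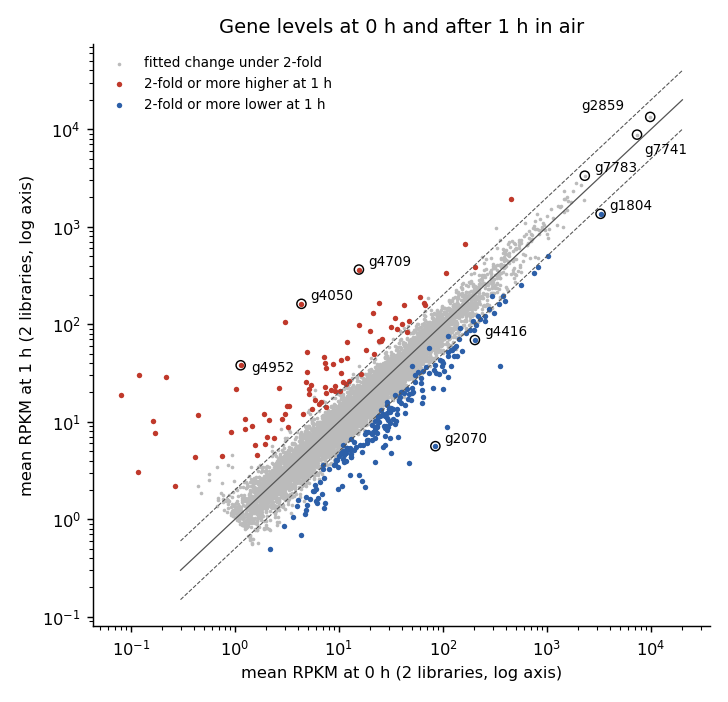
Mean RPKM of each of the 9372 tested genes at 0 h (x axis) and after 1 h in air (y axis), 2 libraries each, both axes logarithmic. The solid line marks equal levels and the dashed lines 2-fold differences. The 85 red genes had a fitted log2(RPKM + 1) change of 2-fold or more upward and the 196 blue genes the same downward. The circled genes are those named in the text.

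The gene with the largest fitted change upward was g4709, on the minus strand of scaffold00629 (710771 to 713754), a complete model of 4 exons with 1005 bp of coding sequence. It held 13.6 and 17.5 RPKM in the 0 h libraries, and 125 and 602 RPKM in 1 h libraries 1 and 2. Both 1 h values lay far above both 0 h values, but 1 h library 2 was 4.83 times as high as 1 h library 1. The means were 15.5 ± 2.69 and 363 ± 338 RPKM (SD, n = 2 each), and the log2 change of 4.07 (SE 0.66) had a limma adjusted p of 0.239. Among all genes ordered by the mean RPKM of the 2 libraries, g4709 stood at place 4489 at 0 h and at place 135 at 1 h. The mean at 1 h rests mostly on 1 h library 2. With 1 h library 1 left out, g4709 was the 1 gene of 9372 that limma called, at a log2 change of 5.20 and an adjusted p of 0.00767, and the lone 1 h library was then assumed to vary like the other groups. With 1 h library 2 left out the log2 change was 2.94 and limma called no gene.

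The gene next in size was g4050, on the minus strand of scaffold00514 (2025313 to 2029337), with 5 exons and 744 bp of coding sequence. It rested on 270 and 437 reads at 0 h, or 4.02 and 4.70 RPKM, and on 1024 and 22976 reads at 1 h. Its 2 values at 1 h were 26.2-fold apart. Relative to the 0 h mean, 1 h library 1 stood at a log2 difference of 1.27 and 1 h library 2 at 5.87. The fitted log2 change was 3.57 (SE 1.53, limma adjusted p = 0.485), so the estimate depended mainly on 1 library.

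At the lower end stood g4416 and g2070, both incomplete models that begin at the first base of their scaffolds. g4416, with 4 exons on the plus strand of scaffold00558 (1 to 1680), held 184 and 221 RPKM at 0 h, and 137 and 0.943 RPKM at 1 h. The value in 1 h library 1 was 67.6% of the 0 h mean and that in 1 h library 2 was 0.466% of it. Only 29 reads fell in g4416 in 1 h library 2, beside 4915 in 1 h library 1. The fitted log2 change was -3.63 (SE 2.83, limma adjusted p = 0.622). The libraries labelled 24 h split in the same manner for this gene, with 0.063 RPKM in number 1 and 215 RPKM in number 2.

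g2070, a single exon on the plus strand of scaffold00214 (1 to 486), held 15.4 and 154 RPKM at 0 h, and 9.55 and 1.69 RPKM at 1 h. Here the 0 h libraries were themselves 9.95-fold apart, and the lower of them was close to the higher 1 h value. The log2 change was -3.24 (SE 2.17, limma adjusted p = 0.581). For both genes the groups did not overlap, yet libraries of 1 group were 145-fold apart for g4416 and 9.95-fold apart for g2070.

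**Figure D2:**
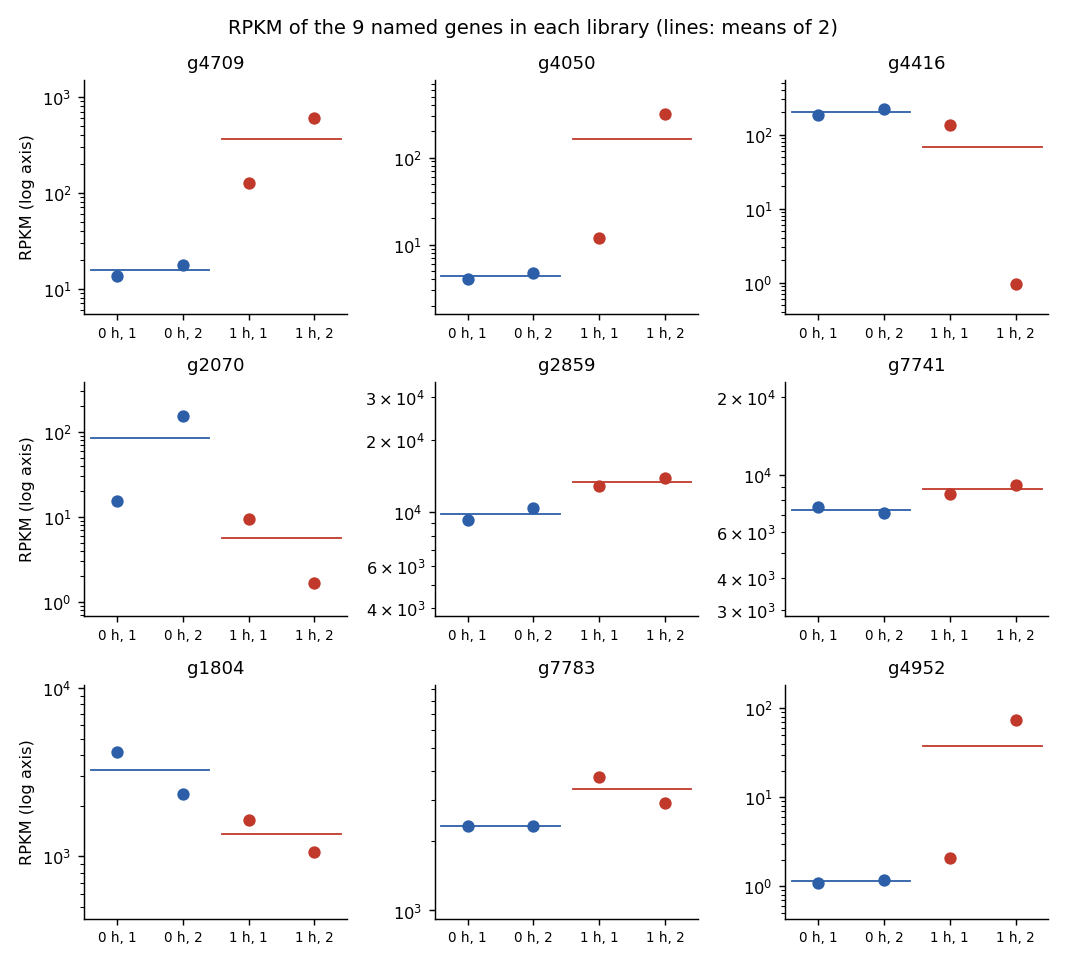
RPKM of the 9 named genes in each of the 4 libraries, on logarithmic axes that differ between panels. Blue points are the 0 h libraries and red points the 1 h libraries, numbered as in the labels, and lines are means of 2. The 1 h points lie close together for g2859 and g7741 and far apart for g4050, g4416 and g4952.

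The 4 genes with the smallest adjusted p, 0.111 in limma, were singled out after their values had been seen and are given by position. A small p favours genes with close replicates. One, on the plus strand of scaffold00251 (262303 to 265867; 4 exons, 2631 bp of coding sequence), held 3.02 and 2.28 RPKM at 0 h and 16.1 and 28.6 RPKM at 1 h, an 8.43-fold higher mean and a log2 change of 2.63 (SE 0.32). The other 3 were lower at 1 h. A gene of 4 exons on the minus strand of scaffold01204 (1227971 to 1229044) held 39.3 and 32.2 RPKM at 0 h and 12.3 and 12.0 RPKM at 1 h, a log2 change of -1.48 (SE 0.17). A gene of 4 exons on the plus strand of scaffold00514 (251807 to 252771) held 32.9 and 24.7 RPKM, then 7.38 and 9.18 RPKM, a log2 change of -1.68 (SE 0.20). The third lower gene, of 5 exons on the minus strand of scaffold00012 (1307002 to 1309159), held 4.83 and 3.79 RPKM, then 0.868 and 0.506 RPKM, a log2 change of -1.66 (SE 0.19), and its 1 h values rested on 40 and 20 reads.

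In each of these 4 genes both 1 h libraries were at least 2-fold away from both 0 h libraries, on the same side. Among the 25 genes with the smallest p, 9 were higher and 16 lower at 1 h, with log2 changes between 0.91 and 4.07 in size and limma adjusted p up to 0.251. Among the 100 with the smallest p, 17 were higher and 83 lower. These ranks are from the fit to RPKM as deposited, and the tilt to lower values moved with scaling. At an unadjusted limma p under 0.05, that fit gave 200 higher and 765 lower genes. After trimmed-mean scaling the counts were 341 and 515. The median SE of a log2 change was 0.22 over all tested genes, 0.68 over the 85 genes that were 2-fold or more higher and 0.47 over the 196 that were 2-fold or more lower.

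The 1 h libraries were then set against the 0 h libraries one at a time, to see how far they gave the same genes. Relative to the 0 h mean, 1 h library 1 had 61 genes that were 2-fold or more higher and 140 that were lower. 1 h library 2 had 227 and 372. The genes higher in both numbered 21, which is 34.4% of those of library 1 and 9.25% of those of library 2, and the genes lower in both numbered 68 (48.6% and 18.3%). By 4-fold or more, 5 genes were higher in library 1, 63 in library 2 and 3 in both. Of the 227 genes that were 2-fold higher in 1 h library 2, 81 were below the 0 h mean in 1 h library 1, and of its 372 lower genes 49 were above it there. In the other direction, 17 of the 61 higher genes of library 1 were below the 0 h mean in library 2, and 10 of its 140 lower genes were above it.

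Because both of these comparisons use the same 0 h mean, the 1 h libraries were also compared through pairs that share no library. With pairs by library number, the log2 changes of 1 h library 1 over 0 h library 1 and of 1 h library 2 over 0 h library 2 correlated across the 9372 genes at Pearson r = 0.21 and Spearman rho = 0.24. Genes are not independent replicates and no p is given. By 2-fold or more, 195 genes were higher in the first pair, 206 in the second and 23 in both (11.8% and 11.2%). For lower values the counts were 360, 278 and 50 (13.9% and 18.0%), and 17 genes were 2-fold or more away in opposite directions, 8 of them higher in the first pair. With the pairs crossed, r was 0.25 and rho 0.20. Then 51 genes were 2-fold or more higher in the pair with 1 h library 1, 423 in the other and 22 in both (43.1% and 5.2%). For lower values the crossed counts were 128, 689 and 53 (41.4% and 7.69%). In opposite directions, 8 genes were 2-fold or more away.

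**Figure D3:**
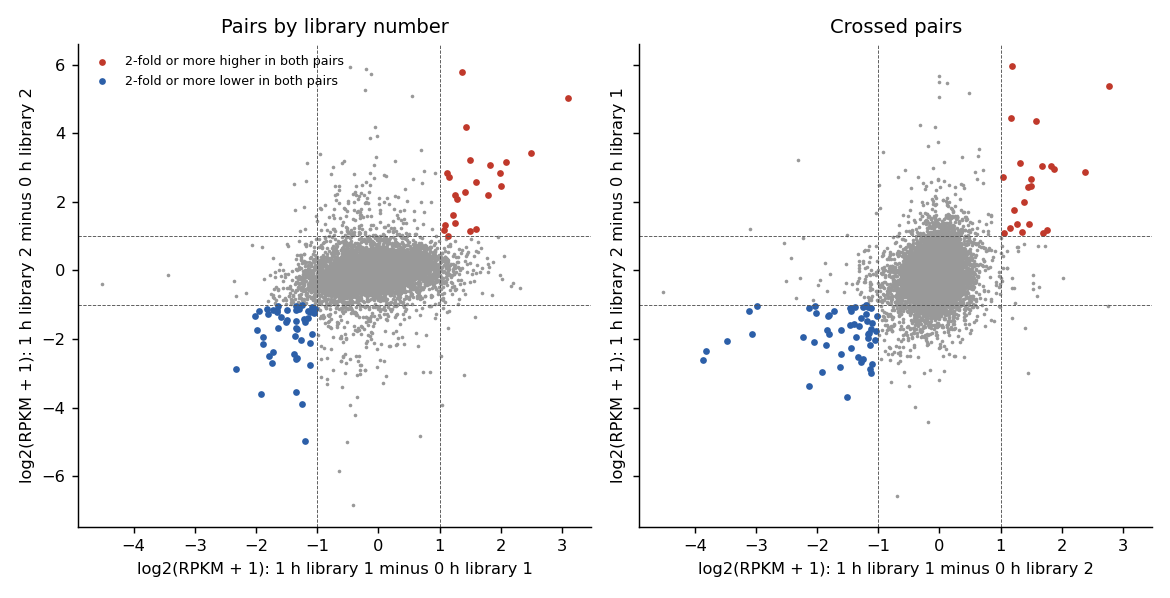
Differences in log2(RPKM + 1) between a 1 h and a 0 h library, for pairs that share no library. The left panel pairs libraries by number and the right panel crosses them, each point is 1 of 9372 genes, and dashed lines mark 2-fold. Red and blue genes are 2-fold or more higher (23 left, 22 right) or lower (50 left, 53 right) in both pairs. In the right panel the cloud is narrow along the x axis, for 1 h library 1 over 0 h library 2, and wide along the y axis.

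The genes that were 2-fold or more higher or lower in both 1 h libraries against the 0 h mean were followed further, as a description of genes chosen by these values. The 21 higher genes had a median level of 7.29 RPKM at 0 h and 39.8 RPKM at 1 h. Their 0 h libraries lay within 1.5-fold of each other in 17 of 21, and 1 h library 2 stood farther from 0 h than library 1 in 17 of 21. The 68 lower genes started from a median of 27.7 RPKM and ended at 8.04 RPKM. Their 0 h libraries were less close, within 1.5-fold in 25 of 68 and 2-fold or more apart in 26. The lowest limma adjusted p was 0.111 in both sets, and the highest was 0.504 and 0.581.

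The 456 genes whose 1 h libraries were 2-fold or more apart show which library departed from 0 h. In 321 of them the 0 h libraries lay within 1.5-fold of each other. In 218 of these (67.9%) 1 h library 1 was within 1.5-fold of the 0 h mean while 1 h library 2 was not, and in 36 (11.2%) it was the other way round. In a further 36 both stood beyond 1.5-fold on the same side of the 0 h mean, and in 25 on opposite sides. The library labelled 24 h number 1 was nearer to 1 h library 2 than to 1 h library 1 in 435 of the 456 genes, and the library labelled 24 h number 2 was nearer to 1 h library 1 in 422. Whether labels, cultures or handling have a part in this was not tested.

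The gene farthest apart between the 1 h libraries, among those with close 0 h libraries and a mean of at least 10 RPKM, was g4416, at 145-fold. Next was g4952, a gene of 6 exons and 834 bp of coding sequence on the minus strand of scaffold00661 (19537 to 21470), at 35.9-fold. In 1 h library 1 g4952 rested on 85 reads and was 1.81 times the 0 h mean. In 1 h library 2 it rested on 2614 reads and was 65.0 times the 0 h mean. Its fitted log2 change of 2.82 (SE 1.77, limma adjusted p = 0.563) averaged these values.

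Genes that were nearly absent at 0 h and well above that at 1 h were found in 1 h library 2. Of all 10283 genes, 7 had under 1 RPKM in both 0 h libraries and at least 10 RPKM in 1 h library 2, where they reached 13.4 to 59.8 RPKM. None had 10 RPKM in 1 h library 1, in which the same 7 genes held between 0 and 2.17 RPKM. In the library labelled 24 h number 1 they held 7.83 to 29.9 RPKM and in number 2 at most 1.2 RPKM. In the other direction, 4 genes with at least 10 RPKM in both 0 h libraries were under 1 RPKM in 1 h library 2, and 1 was under 1 RPKM in 1 h library 1. No gene had 0 reads in both 0 h libraries and 10 or more in both 1 h libraries, nor the reverse.

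The distribution of levels was close at both times, with a small shift. The median and both quartiles were lower in both 1 h libraries than in both 0 h libraries. The 1000 most abundant genes took 54.9% and 57.0% of reads at 0 h, beside 59.3% and 58.3% at 1 h. This shift was not tested. The median gene of the whole table held 12.3 and 12.0 RPKM in the 0 h libraries and 11.2 and 11.4 RPKM in the 1 h libraries. At least 100 RPKM was reached by 773 and 719 genes at 0 h, and by 685 and 739 genes at 1 h, and the 2 ranges overlap. At least 1000 RPKM was reached by 30, 28, 33 and 30 genes in the same order. The share of reads in the 100 most abundant genes was 20.2% and 23.4% at 0 h, beside 26.3% and 24.1% at 1 h. Of the 100 most abundant genes of a single library, a 0 h and a 1 h library shared 70 to 86, beside 76 shared by the 0 h libraries and 82 by the 1 h libraries. For the top 1000, a 0 h and a 1 h library shared 767 to 906 genes, beside 848 and 849 within the pairs.

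The most abundant gene at both times was g2859, on scaffold00366 (466642 to 467696, plus strand), with 3 exons and 312 bp of coding sequence. This gene held 9250 and 10366 RPKM at 0 h, and 12872 and 13832 RPKM at 1 h. Both 1 h values lay above both 0 h values, with a log2 change of 0.45 (SE 0.21, limma adjusted p = 0.487). The second gene was g7741, with 2 exons and 465 bp of coding sequence on the plus strand of scaffold01012 (2389666 to 2390500), at 7545 and 7111 RPKM and then 8451 and 9125 RPKM. Its log2 change was 0.26 (SE 0.20, limma adjusted p = 0.615). Both genes kept their place in all 4 libraries, so quantile normalization set their changes to 0.00 by its construction.

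The third place differed between times. At 0 h it belonged to g1804, an incomplete model of 3 exons on the minus strand of scaffold00168 (1227 to 2344), with 4183 and 2354 RPKM at 0 h, and 1644 and 1066 RPKM at 1 h. The 0 h libraries differed by 1.78-fold, both 1 h values lay lower, and the log2 change was -1.24 (SE 0.34, limma adjusted p = 0.423). g1804 stood at place 22 at 1 h. The third place at 1 h belonged to g7783, with 4 exons and 951 bp of coding sequence on the minus strand of scaffold01012 (2626639 to 2628927). It held 2302 and 2308 RPKM at 0 h, then 3762 and 2902 RPKM, a log2 change of 0.52 (SE 0.26, limma adjusted p = 0.503).

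The deposited RPKM divides reads by the whole gene span, introns included, so these levels were also computed per kilobase of spliced transcript from the recovered reads. On that scale g2859 held 20186 and 22622 reads per kilobase, scaled to the library as before, at 0 h, and 28089 and 30184 at 1 h. g7741 held 9909 and 9340, then 11099 and 11985. g1804 held 10049 and 5655 at 0 h, so that in 0 h library 1 it stood slightly above g7741, and 3950 and 2561 at 1 h. The ratio between libraries of a gene is the same on both scales.

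Groups of genes formed by level and by gene model mostly had shares close to those of all tested genes. The genes were split by mean level into 4 bins. The highest bin (median 69.3 RPKM) had 15.3% of its 2343 genes fully higher at 1 h and 27.0% fully lower. The lowest bin (median 3.23 RPKM) had 11.9% and 28.6%, beside 12.9% and 28.3% of all tested genes. After trimmed-mean scaling the highest bin had 22.2% fully higher and 19.4% fully lower, and the lowest bin 17.3% and 21.8%, beside 19.3% and 21.1% of all. The median log2 change was -0.05 in the highest bin and -0.08 in the lowest, and after that scaling 0.046 and -0.015.

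The 85 genes of a single exon held 17 that were fully higher (20.0%) and 26 that were fully lower (30.6%), with 2 and 6 that were 2-fold or more higher and lower (2.35% and 7.06%, beside 0.907% and 2.09% of all tested genes). Their median level was 68.8 RPKM, beside 14.3 RPKM for all tested genes. The highest bin by level had 1.15% and 2.77% that were 2-fold or more higher and lower. After trimmed-mean scaling, 23.5% of the single-exon genes were fully higher and 24.7% fully lower. Genes of more than 10 exons had 11.8% and 28.7% fully higher and lower. Among the 142 tested genes with more than 1 predicted transcript, 14 were fully higher and 32 fully lower (9.86% and 22.5%, beside 12.9% and 28.3% of all tested genes). By 2-fold or more, 0 of them were higher and 1 was lower (0.0% and 0.704%, beside 0.907% and 2.09%). Models that lack a start or stop codon had 13.7% and 29.9%, beside 12.7% and 28.0% of complete ones. The 4 bins by coding length had between 12.2% and 13.8% fully higher and between 27.9% and 28.6% fully lower. These groups were not tested against each other.

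**Figure D4:**
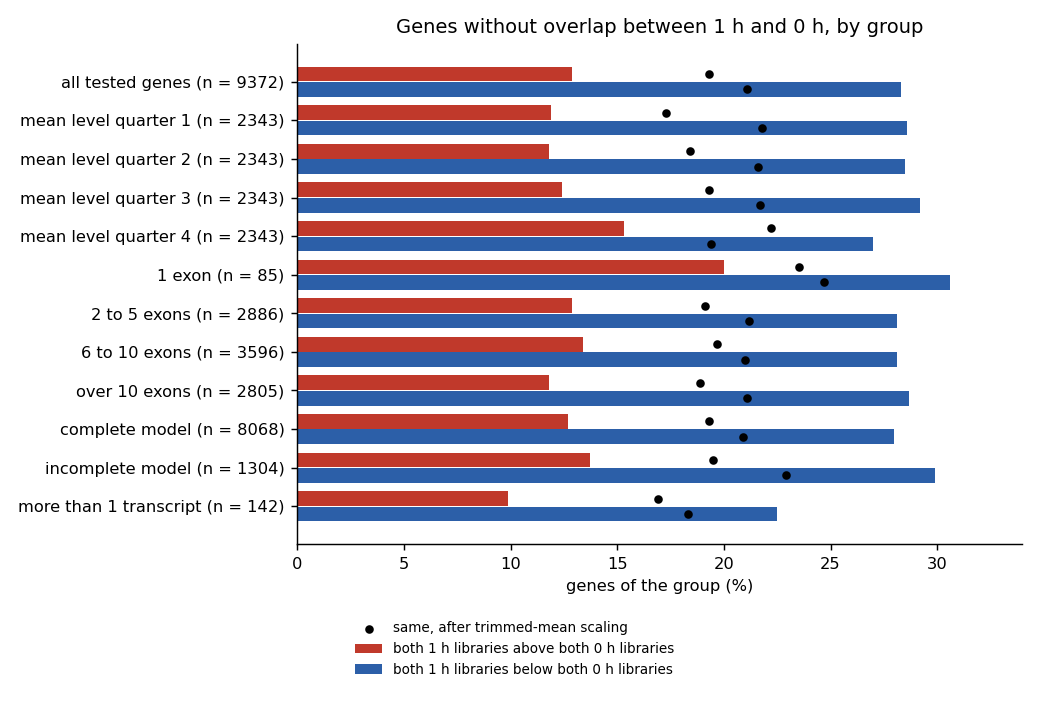
Share of the genes of each group, in percent, in which both 1 h libraries lay above both 0 h libraries (red) or below both (blue), from RPKM as deposited. Black points give the same shares after trimmed-mean scaling, which brings both directions close together, at 19.3% and 21.1% of all tested genes. Groups are by mean level, exon number, completeness and number of predicted transcripts.

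The genes that were both 2-fold or more apart in the fit and fully separated numbered 57 higher (0.608%) and 175 lower (1.87%). The 57 lay on 35 scaffolds and the 175 on 77. Their models had a median of 7 exons and 1098 bp of coding sequence among the higher, 6 exons and 837 bp among the lower, beside 7 exons and 1014 bp among all tested genes. The share of complete models was 93.0%, 81.7% and 86.1%.

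Neighbouring genes were compared along the scaffolds. The log2 changes of 7474 adjacent pairs of tested genes correlated at r = 0.06, and those of genes 10 places apart at r = 0.017. For head-to-head pairs, which face away from a shared upstream stretch, r was 0.076, for tail-to-tail pairs 0.034 and for pairs on the same strand 0.069. Most of the 57 higher genes stood alone, as 48 of them had no adjacent gene of the same set. There was 1 run of 2, 1 run of 3 and 1 run of 4 such genes. Among the 175 lower genes, 156 stood alone, with 8 runs of 2 and 1 run of 3.

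The run of 4 holds g4050 and covers 16984 bp of scaffold00514 (2019054 to 2036037). It was picked out after its values had been seen. The neighbour before g4050, of 14 exons on the minus strand (2019054 to 2024777), held 4.73 and 5.16 RPKM at 0 h and 21.6 and 43.4 RPKM at 1 h, a log2 change of 2.42 (SE 0.53, limma adjusted p = 0.352). The neighbour after it, of 3 exons on the minus strand (2032304 to 2033887), held 22.8 and 20.1 RPKM, then 66.4 and 194 RPKM, a log2 change of 2.36 (SE 0.45, limma adjusted p = 0.275). The last, of 3 exons on the plus strand (2035313 to 2036037), held 147 and 180 RPKM, then 511 and 823 RPKM, a log2 change of 1.99 (SE 0.27, limma adjusted p = 0.144). By the rule that defines a run, both 1 h libraries were above both 0 h libraries in each gene. In all 4 genes 1 h library 2 was the higher of the pair. Gaps between them were 535, 2966 and 1425 bp. The genes on either side of the run, at log2 changes of 0.21 and -0.33, had overlapping values at 0 h and 1 h.

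**Figure D5:**
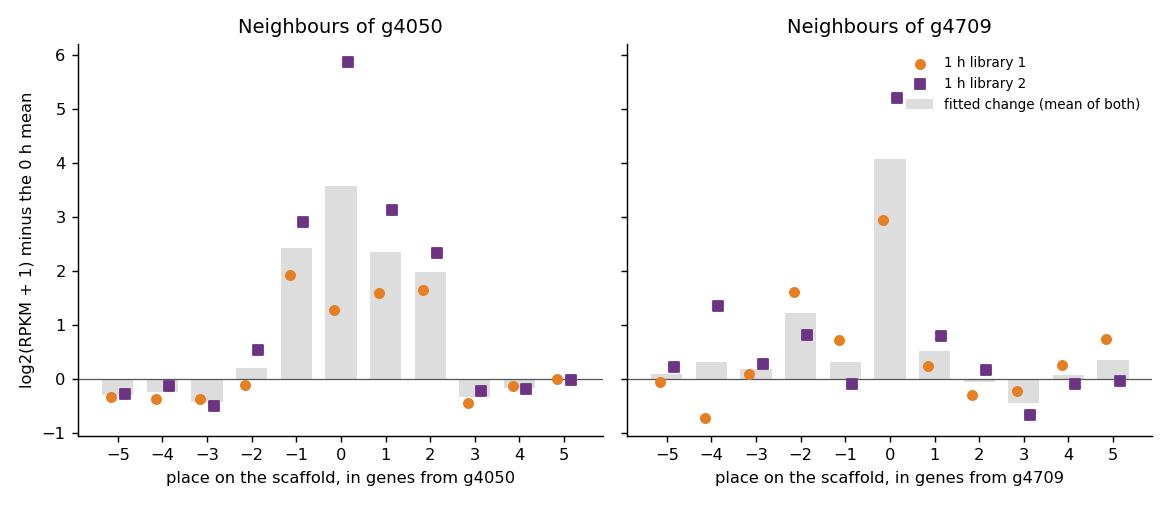
Difference from the 0 h mean in log2(RPKM + 1) for the genes within 5 places of g4050 (left) and g4709 (right), in order along the scaffold. Grey bars give the fitted change, orange points 1 h library 1 and purple squares 1 h library 2. In the left panel 4 adjacent genes have fitted changes of 1.99 to 3.57, with library 2 above library 1 in each, and in the right panel g4709 stands at 4.07 while its nearest neighbours are at 0.32 and 0.52 and the gene 2 places before it at 1.22.

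The run of 3 higher genes lay on the same scaffold00514, far from the run of 4, between 12767 and 25949. Its genes held 0.448, 6.79 and 3.30 RPKM in 0 h library 1 and 1.05, 8.03 and 3.17 RPKM in 0 h library 2. They held 1.62, 9.83 and 4.50 RPKM in 1 h library 1 and 7.22, 35.5 and 13.0 RPKM in 1 h library 2. The library 2 values were the ones that stood well above 0 h, and the log2 changes of 1.43, 1.24 and 1.05 had limma adjusted p of 0.479, 0.485 and 0.485. The run of 3 lower genes, on scaffold00230 (68027 to 86040), had log2 changes of -1.56, -1.49 and -1.62 with limma adjusted p of 0.589, 0.624 and 0.58. In these genes too 1 h library 2 was the farther from 0 h, with 10.8, 6.60 and 2.36 RPKM beside 51.9, 20.6 and 10.8 RPKM in 1 h library 1. The sources used here do not say whether the libraries kept strand, and reads of adjacent models close to each other, such as the last pair of this run at a gap of 27 bp, may not be fully told apart.

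The 911 genes under the filter were mostly measured at a low level. Of these, 752 had at least 1 read in each of the 4 libraries and 24 had none in any. The highest mean among them was 0.9946 RPKM, the lowest mean among the genes kept was 1.0018 RPKM, and no value of a gene left out exceeded 2.8 RPKM in any of the 4 libraries.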

How the data were processed

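The deposited table gives RPKM in 1 column per library, per the file headers. TopHat and HTSeq are named in the submitters' processing notes. The sources used here give no versions, strand setting or assembly name. Gene models are AUGUSTUS predictions with start and end positions and a prediction score for each, as deposited by the authors. The scores were not used.

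Each RPKM times the distance from start to end of the gene model, introns included, was divided by what 1 read was worth in its library, a unit read from the lowest values and refined on all of them. This gave whole reads, within 0.01 reads, for 100% of the values of every library.

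log2(RPKM + 1) was fitted with limma 3.58.1 in R 4.3.3 (intensity trend, robust moderation) on all 8 libraries in 4 groups of 2, with 4 residual degrees of freedom, and 1 h was contrasted with 0 h. The test was two-sided. Genes averaging 1 RPKM or more across the 4 libraries of 0 h and 1 h entered, and p-values were adjusted over all of them. The pooled fit takes part of its spread from the 4 h and 24 h libraries. The 4 h pair was 2-fold or more apart in 14 genes and the 24 h pair in 755 (8.06%). With the 24 h libraries left out of the fit, limma still called 0 genes, with a smallest adjusted p of 0.0985. At an unadjusted p under 0.05, limma then gave 262 higher and 928 lower genes, beside 200 and 765 in the main fit. The procedure was tested on simulated data in which all genes shared a common spread between replicates. All changes planted in it were larger than 4-fold, so that test does not cover 2-fold changes. Nor does it cover genes whose replicates lie as far apart as those of g4416.

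To look for a library deposited under 2 labels, replicates were compared by a chi-square of the recovered reads over genes. It came to 118 per degree of freedom for the 0 h pair and 142 for the 1 h pair. It was 21.7 for 1 h library 2 with the library labelled 24 h number 1, close to the 20.6 of the 4 h pair. All are far above 1, and no pair was treated as 1 library.

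Genes were named by rule: the 2 largest and the 2 smallest fitted changes among genes averaging 10 RPKM or more and no overlap between groups, the 3 highest means at 0 h and at 1 h, and the 2 genes with the largest ratio between 1 h libraries where the 0 h libraries lay within 1.5-fold. Lists of pathway genes by name could not be measured. The genes, groups and rules were chosen with earlier results of these data known. Alternatives changed the pseudocount, filter, scaling, moderation, libraries in the fit, replicate block, the use of recovered reads (limma voom) and each library of 0 h and 1 h. Leaving out the 24 h libraries and centring each library on its median gene were chosen after seeing the data.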

Additional observations from a re-analysis of the deposited data

How the results depend on the processing

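limma called 0 genes under every alternative run, except 1 without 1 h library 1 (0 to 1 over the leave-outs). Unadjusted p under 0.05 held for 965 genes in all, for 604 with a mean of at least 10 RPKM required (fewer genes tested), and for 329 (without 0 h library 1) to 2076 (without 0 h library 2) over the leave-outs. Fully higher genes numbered 764 with that filter, 1811 after trimmed-mean scaling, 1919 after quantile normalization, 1815 with voom and 2031 with each library centred on its median gene, and fully lower genes 1582 with that filter. Of the fully separated genes, 49.2% were lower after quantile normalization, 52.1% with voom and 47.0% after centring. With 3 libraries in place of 4, which separate more easily, fully higher genes numbered 2140 to 2902 and fully lower ones 3589 to 4533. Genes 2-fold or more higher numbered 150 with voom and 61 (without 1 h library 2) to 227 (without 1 h library 1), with 221 without 0 h library 2. Those 2-fold or more lower numbered 140 (without 1 h library 2) to 433 (without 0 h library 2), with 372 without 1 h library 1. The median log2 change was 0.0052 after trimmed-mean scaling, 0.0096 after quantile normalization, 0.0059 with voom, 0.014 after centring, and -0.12 to -0.05 over the leave-outs. The correlation of pairs was 0.18 with a pseudocount of 0.1 RPKM, 0.16 with voom and 0.25 with crossed pairs. For moves with no reason given, the cause was not tested.

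With the replicate number as a block, limma called 0 genes, with a smallest adjusted p of 0.271. Between libraries of the same number, deviations from the group means correlated across genes at 0.014 for 0 h with 1 h, at 0.35 for 0 h with 4 h, at 0.086 for 0 h with 24 h, at 0.10 for 1 h with 4 h, at -0.73 for 1 h with 24 h and at 0.16 for 4 h with 24 h. The labels do not tie the numbers to a shared culture or day, and the numbers were not treated as pairing the libraries. Of 349 values of 22 followed genes under 16 alternatives, 0 changed direction. This count is no check of the direction. All followed genes were fully separated between 0 h and 1 h, so leaving out a library could not reverse them. Changes of filter, moderation, block or other libraries in the fit leave the fold change as it was. Quantile normalization set g2859 and g7741 to 0, which was not counted as a change of direction. Over all settings the limma or voom adjusted p reached at most 0.999 for g4709.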
